A study of Mus musculus with 26 samples.

Results

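The Wnt ligands, their receptors and their antagonists were followed in 3 murine EML4-ALK lung cancer lines under the ALK inhibitor alectinib. Members were the gene symbols made of Wnt, Fzd, Dkk or Sfrp and a number, together with Lrp5, Lrp6, Lgr4, Lgr5, Lgr6, Rnf43, Znrf3, Axin2, Nkd1, Nkd2, Lef1, Tcf7, Tcf7l1 and Tcf7l2. The rule used names alone, and it found 51 of the 55391 gene symbols in the count table. These were 19 ligands, 12 receptors, 8 secreted antagonists, 5 R-spondin receptors or ligases, 4 transcription factors and 3 feedback inhibitors. The table writes a capital after the number (Wnt10A, Tcf7L1), and the usual mouse spelling is used here.

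Wnt proteins are lipid-modified secreted ligands that bind Frizzled receptors and, for the branch that stabilises beta-catenin, the co-receptors Lrp5 and Lrp6. Beta-catenin then joins TCF and LEF factors on DNA, while Dkk proteins occupy the co-receptors, Sfrp proteins bind the ligands, and Rnf43 and Znrf3 remove Frizzled receptors from the cell surface unless R-spondins and Lgr receptors hold them back. In the lung, Wnt signaling shapes the airway and alveolar epithelium in development and keeps progenitor cells in the adult.

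EA1, EA2 and EA3 are cultured lines from C57BL/6 mice whose tumors were started by an adenovirus that carried Cas9 and guides to Eml4 and Alk, so that all libraries share the EML4-ALK fusion. Cells were grown in RPMI with 100 nM alectinib or with 0.1% DMSO as control, and poly(A) RNA was sequenced. Each line and treatment was sampled once on days 1, 2, 3 and 5, which gives 4 libraries in each of 6 groups and 24 in all, and each line is a single derived line. The days served as replicates, so that p-values measure the spread between days, and no library was repeated within a day. Totals ran from 5780062 to 11732401 counts, with a median of 9252878, and a count of 3, which was 0.251 to 0.530 CPM (counts scaled to a common library total), was taken as the floor of detection. Floors and exact intervals cover counting error only. The treatment note in the labels lists another set of days than the sample labels do, and the sample labels were followed.

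A further pair of libraries labelled EA3 day 7 stood apart. Across 14264 genes their log2 CPM correlated with the mean of the EA2 libraries of the same treatment at 0.967 (DMSO) and 0.986 (alectinib), against 0.887 and 0.876 with EA3 and 0.883 and 0.854 with EA1. The EA3 values below leave them out, and the members that differ with them are given at the end. Transcripts that MAPK signaling raises fell with alectinib in each line, as the check of the treatment labels: Etv4 fell by 4.08 (EA1), 6.59 (EA2) and 4.03 (EA3) on the log2 scale. Of the marker lists, keratins and other epithelial transcripts summed to between 568 and 9312 CPM and were lower with alectinib in EA2, as given beside Wnt7b, and Epcam had 0 counts in the EA2 alectinib libraries. In every group at least 3 of 6 alveolar type 2, 3 of 5 endothelial and 4 of 6 leukocyte markers were at the floor, Sftpc, Tie1 and Cd3e among them. Other markers of these lists were detected. Leukocyte sums reached 87.5 CPM in EA2 and 94.1 CPM in EA3 with DMSO, and the alveolar type 2 sum reached 221 CPM in EA3 with alectinib. With alectinib Abca3 was called higher in EA3 and Pecam1 lower in EA2.

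The genes of the family were unevenly detected. Of the 51 members, 31 passed the filter on low counts and were tested, and 20 were not. At or under 3 counts in all 24 libraries were 11 members, namely Wnt3, Wnt3a, Wnt6, Wnt8a, Wnt8b, Wnt9b, Fzd10, Dkk1, Dkk4, Sfrp5 and Nkd1, of which Dkk1 and Sfrp5 had 0 counts throughout. The other 9 untested members, Wnt1, Wnt2, Wnt2b, Fzd9, Sfrp1, Sfrp2, Sfrp4, Lgr5 and Lef1, rose above 3 counts in at least 1 library. Above the floor on every day were 2 of the 19 ligands in EA1 with DMSO and 6 with alectinib, 5 and 9 in EA2, and 6 and 10 in EA3.

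**Figure D1:**
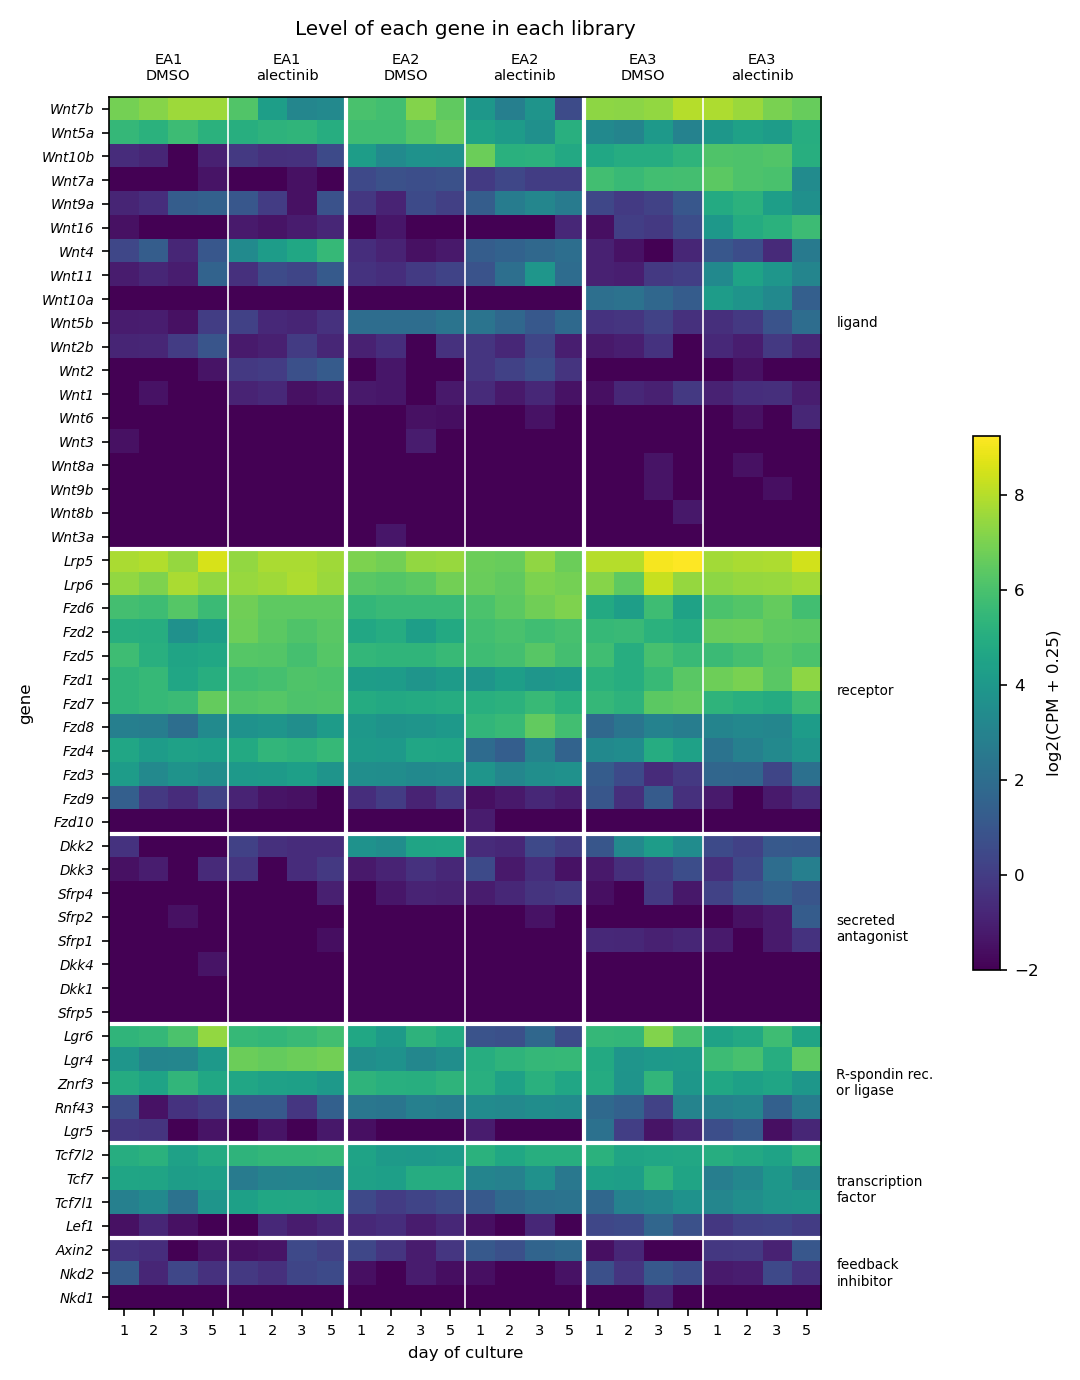
Log2 of CPM plus 0.25 for all 51 genes (rows, grouped by role and ordered by mean level within a role) in the 24 libraries (columns, by line, treatment and day). The darkest cells hold 0 counts. Wnt7b is bright in every DMSO column, Wnt7a and Wnt10a are bright in EA3 columns, and the 11 genes at the floor stay dark throughout.

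Without the drug the lines already differed in most of the tested members. In the 12 DMSO libraries, 24 of 31 members (77.4%) differed between lines at an adjusted p under 0.05 (edgeR quasi-likelihood test, Benjamini-Hochberg over all genes), while 54.9% of all tested genes did. The clearest was Wnt7a, a ligand known from lung and limb epithelium. Wnt7a stood at 56.7, 49.4, 56.9 and 59.0 CPM on days 1, 2, 3 and 5 in EA3, between 1.16 and 1.49 CPM in EA2, and at a single count over the 4 EA1 libraries. The lines did not overlap, and the log2 difference of EA3 from EA2 was 5.36 (95% interval 4.78 to 5.93, adjusted p = 2.02e-08). Over EA1 the summed CPM of Wnt7a was 1970-fold higher, with an exact interval from 353 to 77854 that the single EA1 count makes wide.

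Wnt10a followed the same split with lower counts. EA3 had 45, 38, 24 and 13 counts of Wnt10a on days 1, 2, 3 and 5 with DMSO, and all 8 libraries of EA1 and all 8 of EA2 had 0. Against a floor of 3 counts over the group, EA3 was at least 42.7-fold above EA1 and at least 47.4-fold above EA2. Wnt10b, the closest relative of Wnt10a, stood at 31.9 ± 5.86 CPM in EA3, 13.6 ± 3.65 CPM in EA2 and 0.253 ± 0.181 CPM in EA1 (mean ± SD, n = 4 days), and each step in this order passed the test (adjusted p = 0.00422 for EA3 against EA2 and 6.41e-07 for EA2 against EA1). Wnt5a, which is mostly known for signaling without beta-catenin, had another order, with 72.9 ± 22.2 CPM in EA2, 42.6 ± 7.90 CPM in EA1 and 10.6 ± 4.03 CPM in EA3. EA2 and EA1 differed in Wnt5a by 0.72 on the log2 scale (95% interval 0.24 to 1.21, adjusted p = 0.0216), and EA3 was lower than EA1 by more (adjusted p = 3.47e-05).

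Wnt7b was the most abundant ligand per kilobase of exon in all 3 lines with DMSO, at 33.4 ± 7.17 CPM per kilobase in EA1, 18.2 ± 8.08 in EA2 and 37.8 ± 9.21 in EA3. EA3 and EA1 could not be told apart in Wnt7b (log2 difference 0.18, 95% interval -0.26 to 0.62), and EA2 was lower than both (adjusted p = 0.00265 against EA1 and 0.000983 against EA3). Among receptors Lrp5 was highest per length in each line, at 26.7 ± 9.17 (EA1), 15.4 ± 3.39 (EA2) and 43.1 ± 19.2 (EA3) CPM per kilobase. The next were Lrp6 and Fzd7 in EA1, Fzd6 and Fzd2 in EA2, and Fzd7 and Lrp6 in EA3. Tcf7 led the transcription factors with 8.24 ± 0.950, 9.91 ± 2.37 and 9.90 ± 3.65 CPM per kilobase, and its level did not pass the test between lines (adjusted p = 0.717). Of the antagonists, Dkk2 reached 4.86 ± 1.84 CPM per kilobase in EA2 and 2.73 ± 1.81 in EA3, while no antagonist had a mean over 0.0532 CPM per kilobase in EA1.

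A receptor and a TCF factor were low in single lines. Fzd3 stood at 1.09 ± 0.775 CPM in EA3, against 10.7 ± 0.710 CPM in EA2 and 13.2 ± 3.83 CPM in EA1, and EA3 was below both (adjusted p = 2.04e-05 and 1.17e-05). Tcf7l1, a TCF factor known mainly as a repressor, stood at 1.05 ± 0.236 CPM in EA2 and at 8.93 ± 4.14 and 8.17 ± 4.02 CPM in EA1 and EA3. EA2 was lower than each (adjusted p = 9.15e-05 and 0.000176), and EA1 and EA3 differed by -0.17 on the log2 scale with a 95% interval from -0.94 to 0.60. The 7 tested members that did not pass between lines were Dkk3, Fzd4, Fzd5, Tcf7, Wnt9a, Wnt11 and Znrf3.

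**Figure D2:**
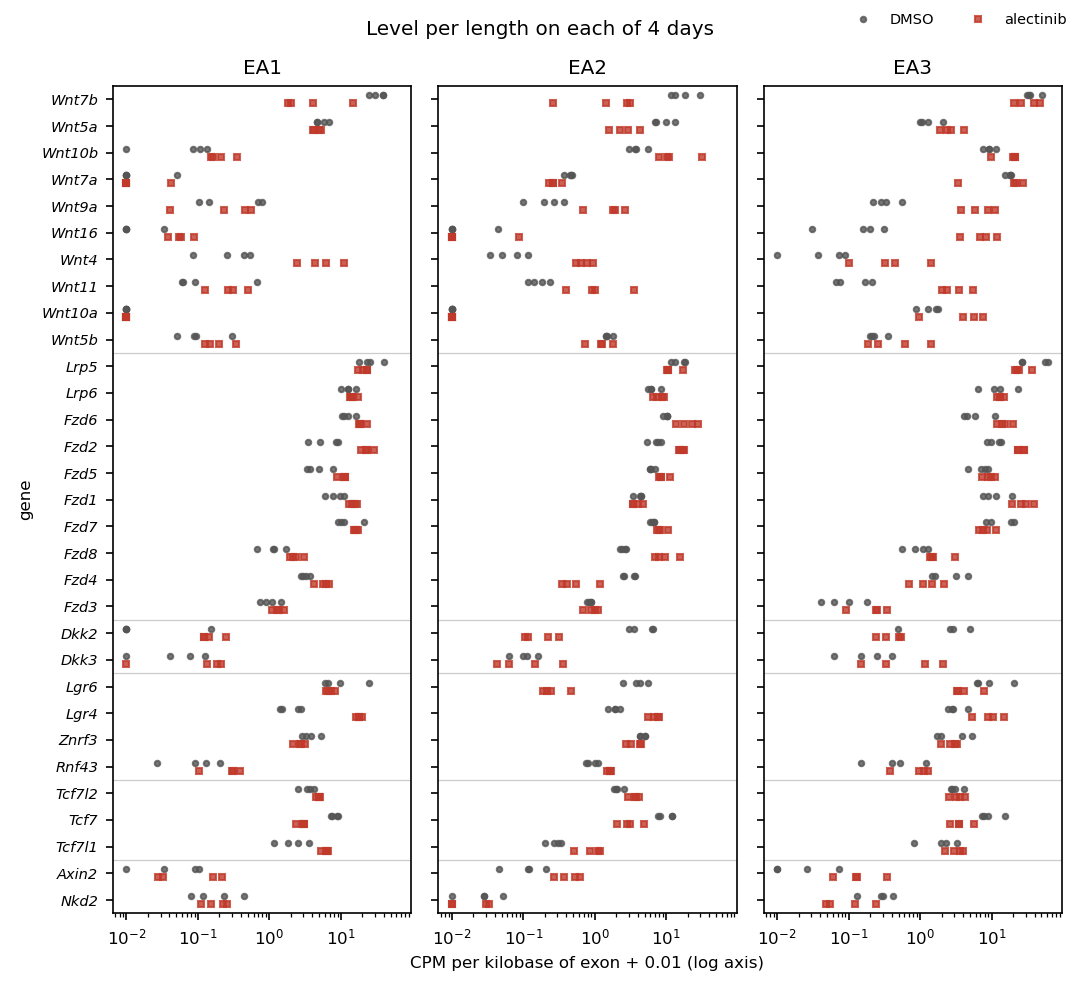
CPM per kilobase of exon plus 0.01 on a log axis for the 31 tested genes in each line, with 1 point per day (grey circles DMSO, red squares alectinib, 4 of each). Lrp5 and Wnt7b lie farthest to the right with DMSO, and the red and grey points of Tcf7, Lgr4 and Wnt4 do not overlap in any line.

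Alectinib raised more members than it lowered in each line. In EA1 12 of 31 tested members rose and 2 fell, while 19.0% of all tested genes rose and 14.6% fell. In EA2 10 rose and 6 fell (13.0% and 11.3% of all genes), and in EA3 14 rose and 6 fell (17.5% and 15.1%). The median log2 fold change of the tested members was 0.73, 0.35 and 0.94 (EA1, EA2, EA3), against 0.06, -0.00 and 0.07 over all genes. Some counts moved by more than 1.5 times when a day was left out. The rises in EA1 dropped to 6 without day 5, the falls in EA1 went to 4 without day 2 and to 1 without day 3, the rises in EA3 to 8 without day 2, and the falls in EA3 to 3 without day 3.

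Moving in the same direction in all 3 lines were 6 members: Wnt4, Fzd2, Fzd6, Fzd8 and Lgr4 rose (16.1% of those tested, against 5.78% of all tested genes), and Tcf7 fell (3.23% against 4.23%). Called in opposite directions in different lines were 3 members, Dkk2, Fzd4 and Wnt5a (9.68% against 1.11%). Leaving out a day moved these counts by more than 1.5 times: without day 1, 2 or 5 Fzd6 in EA1 (log2 fold changes 0.56, 0.55 and 0.56, against 0.65) and Fzd8 in EA3 (0.83, 0.94 and 0.77, against 0.95) did not pass, which left 3 members called higher in all lines. Without day 2, without day 5 or with the day 7 libraries 0 members were called in opposite directions. Without the day blocks Wnt5a alone was called in opposite directions. In all, 25 tested members passed in at least 1 line (80.6% against 53.2%), and Axin2, Lrp6, Nkd2, Wnt5b, Wnt7a and Znrf3 passed in none. Of the 50 member and line pairs that passed, 34 passed in every refit that tested them (7 of 14 in EA1, 16 of 16 in EA2 and 11 of 20 in EA3), and the others are marked where they are described. Asking for a log2 fold change of at least 1 as well also drops Tcf7l2 in EA2 from the 34.

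**Figure D3:**
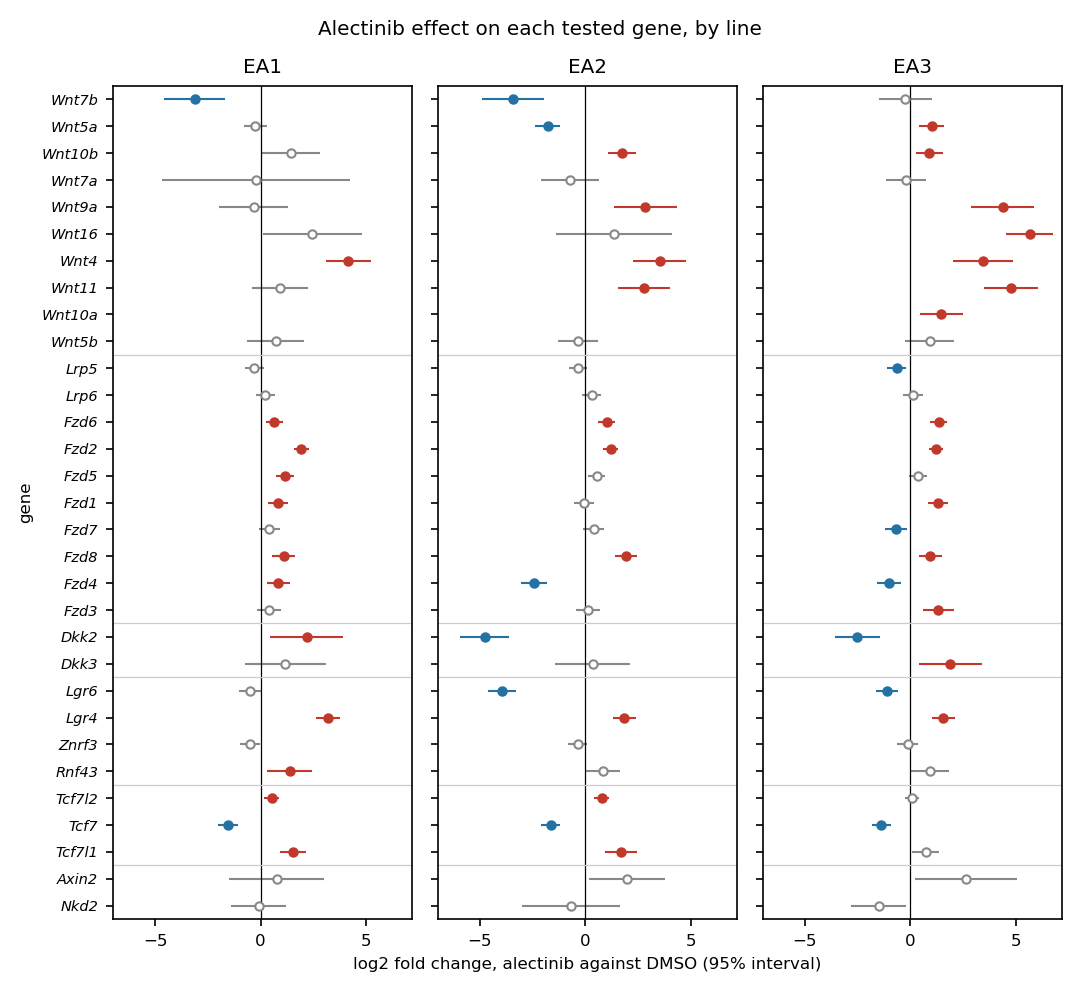
Log2 fold change of alectinib against DMSO with its 95% interval for the 31 tested genes in each line (filled red, adjusted p under 0.05 and higher; filled blue, lower; open, not past the threshold). Wnt10a has no point in EA1 and EA2, where all its counts were 0. Dkk2, Fzd4 and Wnt5a change sides between lines.

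Of the ligands, Wnt4 rose in every line. Wnt4, a ligand of kidney and gonad development, lies at chr4:137277489-137299726 on the plus strand (mm10, GENCODE). In EA1 it stood at 1.05, 2.23, 0.321 and 1.81 CPM on days 1, 2, 3 and 5 with DMSO and at 10.3, 18.4, 25.7 and 46.3 CPM with alectinib. In EA2 the values were 0.448, 0.297, 0.100 and 0.172 CPM against 2.27, 2.65, 3.27 and 3.93 CPM, and in EA3 0.269, 0.117, 0 and 0.330 CPM against 1.85, 1.31, 0.376 and 5.95 CPM. All alectinib libraries lay above all DMSO libraries of their line, although the EA2 and EA3 DMSO values were near the floor. Log2 fold changes were 4.16 (SE 0.49, adjusted p = 5.24e-05) in EA1, 3.52 (SE 0.58, adjusted p = 0.000649) in EA2 and 3.45 (SE 0.67, adjusted p = 0.00174) in EA3. The test between lines gave an adjusted p of 0.805.

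Wnt7b, a ligand of lung epithelium that lies at chr15:85535437-85582473 on the minus strand, fell in EA1 and EA2. In EA1 it stood at 121, 148, 192 and 193 CPM with DMSO on days 1, 2, 3 and 5, and at 72.3, 19.8, 8.80 and 9.64 CPM with alectinib. In EA2 the values were 64.4, 57.1, 144 and 90.5 CPM with DMSO and 15.4, 6.89, 13.9 and 1.24 CPM with alectinib. Groups did not overlap in either line, and the lowest alectinib values came on the later days. In EA3 the alectinib values of 232, 191, 125 and 99.7 CPM straddled the DMSO values of 163, 156, 170.1 and 252 CPM.

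Wnt7b thus fell by 3.13 on the log2 scale in EA1 (SE 0.67, adjusted p = 0.00374) and by 3.43 in EA2 (SE 0.67, adjusted p = 0.00259), and in EA3 its change was -0.24 (95% interval -1.50 to 1.02). Without day 3 the EA1 value was -2.68 with an adjusted p of 0.0505. The difference between the 3 effects did not pass in edgeR (adjusted p = 0.0608) and passed in DESeq2, with scaling by library size alone, without the filter on low counts, without the day blocks and without day 1. A gene on the other strand, AU022754, covers 6.61% of the exons of Wnt7b, and the strand setting of the counts is not given in the sources used here. The 8 epithelial markers summed to 4677 to 9312 CPM with DMSO and 3284 to 5421 CPM with alectinib in EA1, to 1811 to 2695 and 568 to 1171 CPM in EA2, and to 5378 to 7963 and 3620 to 8619 CPM in EA3, so that the groups did not overlap in EA2. Of the 8, Krt18 fell in each line and Krt8 in EA2, while Epcam rose in EA1, Krt7 in EA2 and Cdh1 in EA2 and EA3. The part of these markers in the Wnt7b result was not tested.

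Wnt9a and Wnt11 rose in EA2 and EA3. Wnt9a, a ligand of joint and blood stem cell development at chr11:59306928-59333552 (plus strand), stood in EA3 at 1.08, 0.700, 0.924 and 1.81 CPM with DMSO and at 29.4, 37.1, 19.4 and 12.3 CPM with alectinib. In EA2 the values were 0.627, 0.297, 1.20 and 0.859 CPM against 2.27, 6.36, 8.80 and 6.07 CPM. In EA1 the alectinib values of 1.83, 0.735, 0.104 and 1.51 CPM overlapped the DMSO values of 0.314, 0.446, 2.24 and 2.59 CPM. The log2 fold change was 4.39 (SE 0.70, adjusted p = 0.000477) in EA3, 2.85 (SE 0.69, adjusted p = 0.00854) in EA2 and -0.32 (95% interval -1.95 to 1.31) in EA1. The effect differed between lines (adjusted p = 0.0347), with EA3 above EA1 by 4.71 (95% interval 2.49 to 6.93) and above EA2 by 1.53 (95% interval -0.56 to 3.63). This call was lost without day 2, 3 or 5 and with the day 7 libraries.

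Wnt11, a ligand that acts mostly on cell movement and polarity, lies at chr7:98835112-98855195 on the plus strand. In EA3 Wnt11 went from 0.269, 0.233, 0.660 and 0.824 CPM with DMSO to 9.79, 22.6, 14.6 and 8.44 CPM with alectinib, a log2 fold change of 4.78 (SE 0.60, adjusted p = 9.84e-05). In EA2 it went from 0.537, 0.446, 0.702 and 0.945 CPM to 1.58, 4.07, 14.6 and 3.71 CPM (log2 fold change 2.77, SE 0.58, adjusted p = 0.00345). Groups did not overlap in these lines. In EA1 they did, and the day 5 DMSO library had the highest value, 2.71 CPM (log2 fold change 0.92, 95% interval -0.41 to 2.25). The 3 effects differed (adjusted p = 0.0445), although this call was lost when any 1 day was left out. A gene on the other strand, Gm8398, covers 8.80% of the exons of Wnt11.

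Wnt16, a ligand known from bone and joint, had the highest fold change of the tested members. It lies at chr6:22288227-22298522 on the plus strand. In EA3 it stood at 0.0897, 0.816, 0.660 and 1.32 CPM with DMSO and at 15.6, 30.1, 36.6 and 52.2 CPM with alectinib on days 1, 2, 3 and 5. The log2 fold change was 5.66 (SE 0.51, adjusted p = 2.47e-05), a 50.7-fold rise on the fitted scale. In EA1 Wnt16 had 1 count over the 4 DMSO libraries and 9 with alectinib (ratio of summed CPM 7.99, exact interval 1.11 to 350.3), and in EA2 it had 3 counts in all with alectinib. The test between lines did not pass (adjusted p = 0.329), with an interval from -1.88 to 8.29 for EA3 against EA1.

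Wnt10b rose in EA2 and EA3, and Wnt10a in EA3. Wnt10b went from 18.8, 10.3, 12.9 and 12.5 CPM to 106, 34.8, 37.6 and 27.1 CPM in EA2 (log2 fold change 1.74, SE 0.31, adjusted p = 0.00110), with no overlap. In EA3 Wnt10b went from 25.5, 31.0, 31.5 and 39.7 CPM to 71.5, 68.5, 72.6 and 33.4 CPM, so that day 5 alone lay among the DMSO values (log2 fold change 0.91, SE 0.30, adjusted p = 0.0313). That call was lost without day 1, 2 or 3 (adjusted p = 0.126, 0.168 and 0.123). In EA1 Wnt10b was low, at 0.418, 0.334, 0 and 0.259 CPM with DMSO and 0.675, 0.490, 0.518 and 1.17 CPM with alectinib, without overlap (log2 fold change 1.45, 95% interval 0.08 to 2.82, adjusted p = 0.0937). It passed there without the filter on low counts (1.40, adjusted p = 0.0346), and under that setting alone it was called higher in all 3 lines.

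Wnt10a counts in EA3 went from 45, 38, 24 and 13 to 200, 129, 105 and 22 (log2 fold change 1.47, SE 0.44, adjusted p = 0.0367). The day 5 alectinib count lay within the DMSO range, and the call was lost without day 1, 2 or 3 (adjusted p = 0.147, 0.116 and 0.117) and in DESeq2. EA1 and EA2 had 0 counts of Wnt10a with alectinib too, so that EA3 was at least 153-fold above EA1 and at least 128-fold above EA2 under the drug.

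Wnt5a changed in opposite directions. It lies at chr14:28504750-28527448 on the plus strand. In EA2 it went from 55.2, 56.0, 78.3 and 102 CPM with DMSO to 22.4, 17.9, 12.3 and 34.1 CPM with alectinib, and in EA3 from 9.96, 8.28, 16.5 and 7.74 CPM to 15.1, 21.3, 18.6 and 32.1 CPM. In EA1 the DMSO values of 45.4, 35.9, 52.6 and 36.7 CPM overlapped the alectinib values of 32.9, 38.3, 40.6 and 31.8 CPM. Wnt5a fell by 1.79 on the log2 scale in EA2 (SE 0.27, adjusted p = 0.000374) and rose by 1.02 in EA3 (SE 0.28, adjusted p = 0.0130), and its EA1 change was -0.24 (95% interval -0.80 to 0.32).

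The difference between the lines in Wnt5a passed (adjusted p = 0.00276), with EA3 above EA2 by 2.81 (95% interval 1.98 to 3.65) and above EA1 by 1.26 (95% interval 0.44 to 2.08). The rise in EA3 was lost without day 2 (0.86, adjusted p = 0.108), without day 5 (0.70, adjusted p = 0.106) and with the day 7 libraries in the fit (0.43, adjusted p = 0.434). With these opposite changes the alectinib levels of EA2 and EA3 came to lie side by side, at 21.7 ± 9.24 and 21.8 ± 7.36 CPM.

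Among ligands that passed in no line, Wnt7a stood at 86.3, 69.6 and 65.0 CPM on days 1 to 3 in EA3 with alectinib and stood at 10.6 CPM on day 5, when DMSO had 59.0 CPM. Its mean change in EA3 was -0.20 (95% interval -1.14 to 0.75). In EA2 Wnt7a was lower with alectinib without overlap (0.691 to 1.06 CPM), with a change of -0.74 and an adjusted p of 0.433. Wnt5b, a ligand close to Wnt5a, was highest in EA2, where 3.85, 3.86, 3.81 and 4.73 CPM with DMSO stood beside 4.74, 3.18, 1.92 and 3.37 CPM with alectinib.

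Wnt2, a ligand of lung mesenchyme, was not tested. It had 0, 0, 0 and 1 counts with DMSO and 7, 6, 14 and 25 counts with alectinib in EA1 on days 1, 2, 3 and 5. In EA2 the counts were 0, 1, 0 and 0 against 6, 5, 12 and 5. The ratio of summed CPM was 46.2 in EA1 (exact interval 7.93 to 1859) and 33.0 in EA2 (exact interval 5.45 to 1348). EA3 had at most 1 count of Wnt2 in any library of days 1 to 5. Wnt1 and Wnt2b did not go above 5 and 13 counts in a library. Wnt1 had 1 count over the EA1 DMSO libraries and 9 with alectinib, a ratio of summed CPM of 7.99 (exact interval 1.11 to 350.3, counting error only).

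The make-up of the ligand transcripts shifted with these changes. In EA1 with DMSO Wnt7b held 82.7% of the summed ligand CPM per kilobase and Wnt5a 13.9% (means of 4 days). With alectinib Wnt4 held 34.6% (10.6% to 56.0% over days), Wnt7b 28.4% (9.99% to 63.8%) and Wnt5a 26.9%, and the sum went from 40.2 ± 7.90 to 18.0 ± 4.15 CPM per kilobase without overlap of the days. In EA2 Wnt7b went from 51.8% to 6.95% and Wnt10b from 12.5% to 54.2%, while the sums of 34.1 ± 9.76 and 25.9 ± 10.7 CPM per kilobase overlapped. In EA3 Wnt7b went from 54.7% to 33.8% and stayed the largest component, Wnt7a from 25.8% to 17.4%, Wnt16 from 0.231% to 9.56%, and Wnt9a from 0.481% to 7.41%. The EA3 sums, 68.6 ± 11.4 and 96.6 ± 27.5 CPM per kilobase, overlapped as well. These shares were not tested.

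**Figure D4:**
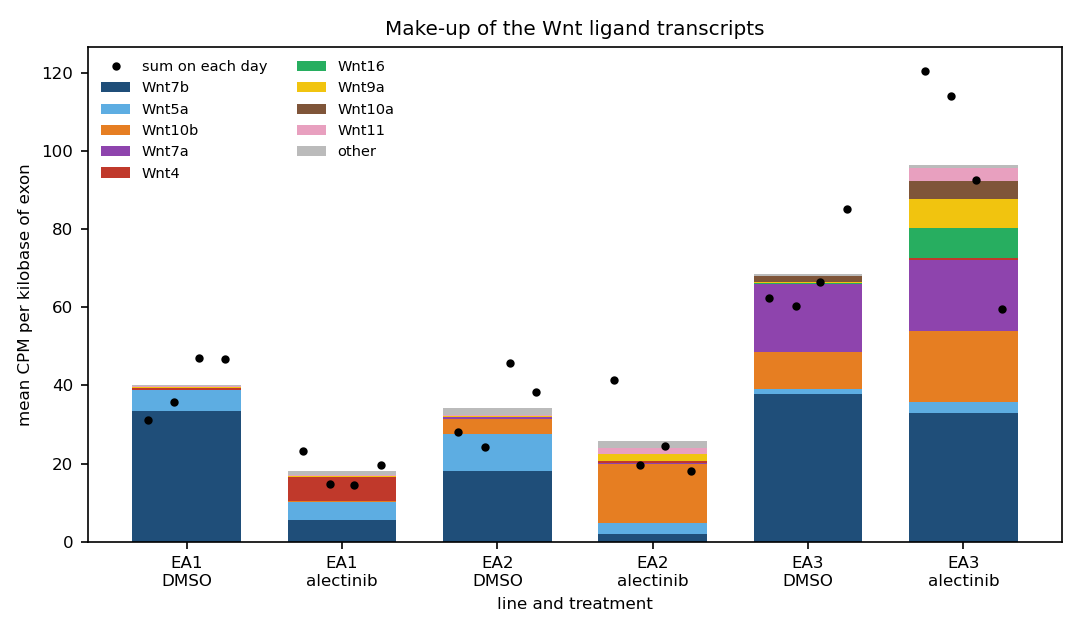
Mean CPM per kilobase of exon of each Wnt ligand, stacked, for each line and treatment (bars, 9 ligands coloured and the other ligands in grey). Black points are the sums on days 1, 2, 3 and 5 from left to right. Wnt7b (dark blue) fills most of each DMSO bar, Wnt4 (red) is largest in EA1 with alectinib, and Wnt10b (orange) in EA2 with alectinib.

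Several ligand genes lie next to one another. Wnt10a begins 6.19 kilobases from Wnt6 on chromosome 1, Wnt10b lies 11.7 kilobases from Wnt1 on chromosome 15, and Wnt9a lies 16.2 kilobases from Wnt3a on chromosome 11. In each of these pairs the first-named gene passed with alectinib in EA3, while the neighbour had at most 3 (Wnt6), 5 (Wnt1) and 1 (Wnt3a) counts in any library. In the remaining pair, Wnt3 and Wnt9b on chromosome 11, both genes were at the floor.

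The summed fibroblast and smooth muscle markers also rose with alectinib in every line, including EA1, where Wnt9a, Wnt11 and Wnt16 were not called. The summed level of 10 fibroblast markers ran from 15.8 to 63.1 CPM with DMSO and from 139 to 512 CPM with alectinib in EA1, from 58.5 to 71.6 and 134 to 242 CPM in EA2, and from 13.3 to 20.2 and 85.2 to 288 CPM in EA3. Past the threshold and higher were 5, 4 and 5 of 7 tested markers, with Col1a1, Col1a2 and Col3a1 in all lines, and Thy1 stayed at the floor in all groups. In both treatments Lum was also at the floor in EA2 and EA3, and Postn in EA2. Pdgfra was at the floor in EA2 with alectinib. The 5 smooth muscle markers summed to 2.03 to 7.02 and 515 to 754 CPM in EA1, 0.859 to 2.96 and 49.2 to 1310 CPM in EA2, and 0.179 to 1.19 and 2.68 to 30.1 CPM in EA3. Of these, 3 were tested: Acta2 and Cnn1 were called higher in every line, and Myh11 in EA1 alone. Tagln and Des were at the floor in EA2 and EA3 with alectinib. The part of these markers in the ligand results was not tested. In such bulk samples a change in the number of cells of a type and a change in RNA per cell cannot be told apart.

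Of the 8 tested Frizzled receptors 6 rose in EA1, 3 rose and 1 fell in EA2, and 5 rose and 2 fell in EA3, beside the shares of all tested genes of 19.0% and 14.6%, 13.0% and 11.3%, and 17.5% and 15.1%. Fzd2 went from 33.2, 31.6, 12.6 and 18.7 CPM to 109, 86.1, 70.2 and 83.2 CPM in EA1, from 26.3, 30.8, 19.7 and 28.4 CPM to 56.6, 64.7, 55.3 and 63.7 CPM in EA2, and from 46.6, 49.8, 36.5 and 31.5 CPM to 103, 105, 86.7 and 86.2 CPM in EA3. Every alectinib library lay above every DMSO library of its line. The log2 fold change of Fzd2 was 1.94 (SE 0.16, adjusted p = 5.79e-06), 1.21 (SE 0.16, adjusted p = 0.000136) and 1.23 (SE 0.16, adjusted p = 0.000119) in EA1, EA2 and EA3.

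Fzd6, a receptor known for hair and planar polarity, rose by 0.65 (SE 0.19, adjusted p = 0.0168), 1.01 (SE 0.19, adjusted p = 0.00170) and 1.36 (SE 0.19, adjusted p = 0.000225) on the log2 scale in EA1, EA2 and EA3. Its mean went from 60.4 ± 12.2 to 94.1 ± 12.2 CPM, from 47.3 ± 2.61 to 98.4 ± 29.3 CPM and from 30.7 ± 15.5 to 74.2 ± 16.5 CPM. No line showed overlap, but in EA1 the call was lost without day 1, 2 or 5 (adjusted p = 0.0860, 0.0788 and 0.0927). Fzd8 went from 15.9, 13.5, 14.4 and 16.4 CPM to 41.8, 47.4, 93.5 and 58.1 CPM in EA2, a log2 fold change of 1.93 (SE 0.24, adjusted p = 8.27e-05).

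Fzd8 rose in the other lines by less, from 6.88 ± 2.51 to 14.2 ± 2.84 CPM in EA1 (log2 fold change 1.09, adjusted p = 0.00431) and from 5.66 ± 1.97 to 11.1 ± 4.84 CPM in EA3 (log2 fold change 0.95, adjusted p = 0.0109). The EA3 call was lost without day 1, 2 or 5 (adjusted p = 0.0554, 0.0647 and 0.0881). The test between lines gave an adjusted p of 0.139 for Fzd8, 0.216 for Fzd6 and 0.0842 for Fzd2.

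Fzd4, a receptor of the retinal vasculature that also binds the ligand Norrin, changed in opposite directions. It lies at chr7:89404355-89413134 on the plus strand. In EA1 it went from 24.8, 18.6, 21.5 and 19.9 CPM to 28.2, 42.1, 38.2 and 46.3 CPM, and in EA2 from 17.1, 16.5, 25.0 and 24.1 CPM to 3.56, 2.30, 7.90 and 2.70 CPM, with no overlap in either line. In EA3 it went from 9.78, 10.8, 31.4 and 21.6 CPM to 4.62, 7.31, 9.69 and 14.5 CPM, with overlap across days but a lower value with alectinib on each day.

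Fzd4 rose by 0.85 on the log2 scale in EA1 (SE 0.25, adjusted p = 0.0199), and it fell by 2.43 in EA2 (SE 0.28, adjusted p = 5.32e-05) and by 0.98 in EA3 (SE 0.26, adjusted p = 0.0121). The effects differed between lines (adjusted p = 0.00115), with EA2 below EA1 by 3.28 (difference -3.28, 95% interval -4.10 to -2.47). The EA1 rise was lost without day 2 (0.67, adjusted p = 0.133) and without day 5 (0.69, adjusted p = 0.0904), and the EA3 fall without day 3 (-0.76, adjusted p = 0.0601). With the day 7 libraries the EA3 value was -1.59.

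Fzd1 rose in EA1 and EA3. It went from 41.4, 45.8, 24.8 and 33.1 CPM to 55.3, 60.7, 70.8 and 66.8 CPM in EA1 and from 36.9, 31.8, 48.0 and 82.1 CPM to 109, 128, 81.6 and 164 CPM in EA3. The EA1 groups did not overlap, and in EA3 the day 3 alectinib value lay just under the highest DMSO value. In EA2 the DMSO range of 14.3 to 18.9 CPM and the alectinib range of 14.5 to 19.8 CPM overlapped. The log2 fold change of Fzd1 was 0.83 (SE 0.22, adjusted p = 0.00980) in EA1, 1.33 (SE 0.22, adjusted p = 0.000579) in EA3 and -0.08 (95% interval -0.56 to 0.39) in EA2. The effects differed (adjusted p = 0.0337), with EA3 above EA2 by 1.41 (95% interval 0.75 to 2.08), a call lost without any 1 of the days, without the day blocks and with the day 7 libraries. The EA1 call was lost without day 3 (0.57, adjusted p = 0.0809) and day 5 (0.73, adjusted p = 0.0653).

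Other receptors passed in a single line. Fzd5 rose in EA1 from 33.9 ± 13.5 to 73.1 ± 8.23 CPM (log2 fold change 1.17, SE 0.20, adjusted p = 0.000696), and in EA2 its change of 0.53 had an adjusted p of 0.0617. It passed in EA2 with that line fitted alone (0.51, adjusted p = 0.0370) and without day 1 (0.60, adjusted p = 0.0485). A gene on the other strand, Gm38058, covers 17.8% of the exons of Fzd5. Fzd3 rose in EA3 from 1.09 ± 0.775 to 2.81 ± 1.32 CPM (log2 fold change 1.34, SE 0.33, adjusted p = 0.00778), and the call was lost without day 2 (adjusted p = 0.0527), without day 5 (adjusted p = 0.0661) and with the day 7 libraries (0.73, adjusted p = 0.147).

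Fzd7 and the co-receptor Lrp5 fell in EA3, by 0.68 (SE 0.24, adjusted p = 0.0425) and 0.63 (SE 0.21, adjusted p = 0.0333) on the log2 scale. Fzd7 went from 44.6, 38.5, 84.4 and 93.9 CPM to 39.2, 34.0, 29.8 and 52.4 CPM, and Lrp5 from 259, 259, 551 and 609.8 CPM to 209, 224, 235 and 358 CPM, so that groups overlapped in both and the later DMSO libraries were the high ones. The Fzd7 call was lost without day 3 (-0.43, adjusted p = 0.214) and day 5 (adjusted p = 0.104), and the Lrp5 call without day 1, 3 or 5 (adjusted p = 0.0599, 0.103 and 0.0716), and both were lost with scaling by library size alone.

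Lrp6, the other co-receptor, passed in no line, and its 95% intervals lay within -0.32 and 0.76 on the log2 scale. Fzd9, not tested, had 40, 20 and 43 counts over the DMSO libraries of EA1, EA2 and EA3 and 5, 7 and 8 counts over the alectinib libraries.

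Of the secreted antagonists, Dkk2, an inhibitor of Lrp5 and Lrp6, fell in EA2 and EA3. It lies at chr3:132085292-132180304 on the plus strand. In EA2 it went from 13.0, 11.3, 23.7 and 24.1 CPM to 0.395, 0.354, 1.13 and 0.787 CPM, the largest fall of the tested members (log2 fold change -4.77, SE 0.54, adjusted p = 4.51e-05). In EA3 it went from 1.79, 9.68, 18.2 and 10.7 CPM to 1.20, 0.872, 1.98 and 1.84 CPM, with overlap through the low day 1 DMSO value (log2 fold change -2.50, SE 0.50, adjusted p = 0.00214).

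In EA1 Dkk2 was near the floor, with 5, 0, 0 and 0 counts under DMSO and 9, 4, 4 and 5 counts under alectinib. The test called a rise there (log2 fold change 2.19, SE 0.80, adjusted p = 0.0498), which was lost without day 2, 3 or 5 (adjusted p = 0.169, 0.169 and 0.165). Without day 1, which holds all 5 DMSO counts, the call passed with a fitted value of 5.01, which is no bound because the remaining DMSO libraries were at 0. The call was also lost with DESeq2 size factors (adjusted p = 0.0505), without the day blocks (0.112), with each line fitted alone (0.116) and with the day 7 libraries (0.0775). The effects differed between lines (adjusted p = 0.00251), and EA3 lay above EA2 by 2.27 (95% interval 0.73 to 3.81).

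Dkk3, a relative of Dkk2 that acts little on the co-receptors, rose in EA3 from 0.179, 0.467, 0.792 and 1.32 CPM to 0.462, 1.09, 3.86 and 7.03 CPM (log2 fold change 1.91, SE 0.69, adjusted p = 0.0476). The groups overlapped across days, the value with alectinib was higher on each day, and the call was lost without any 1 of the days (adjusted p from 0.0535 to 0.197) and in DESeq2 (adjusted p = 0.0541). The Sfrp genes were at or near the floor. Sfrp4 had 1, 0, 5 and 1 counts in EA3 with DMSO and 10, 17, 27 and 16 with alectinib, and Sfrp2 had 0 counts in EA3 with DMSO and 0, 1, 2 and 20 with alectinib, at least 6.42-fold higher with nearly all counts on day 5. Gm26771, a gene on the other strand, covers 16.1% of the Sfrp2 exons. Sfrp1 stayed at or under 5 counts. Fibroblast markers rose in EA3 too, by the values given above, and their part in the Dkk3, Sfrp2 and Sfrp4 values was not tested.

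Lgr4 and Lgr6, receptors of R-spondins, moved apart. Lgr4, at chr2:109917647-110014257 on the plus strand, went from 14.6, 8.36, 8.66 and 16.2 CPM to 106, 96.9, 105 and 117 CPM in EA1. In EA2 it went from 11.4, 13.2, 8.92 and 11.4 CPM to 32.2, 39.6, 44.7 and 46.0 CPM, and in EA3 from 27.9, 14.2, 16.6 and 17.1 CPM to 52.0, 62.2, 31.7 and 87.3 CPM. All alectinib libraries lay above all DMSO libraries of their line. On the log2 scale Lgr4 rose by 3.20 (SE 0.27, adjusted p = 4.99e-06) in EA1, 1.85 (SE 0.26, adjusted p = 0.000182) in EA2 and 1.57 (SE 0.25, adjusted p = 0.000556) in EA3.

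The rise of Lgr4 differed between lines (adjusted p = 0.0254), with EA2 below EA1 (difference -1.35, 95% interval -2.11 to -0.59), EA3 below EA1 (difference -1.63, 95% interval -2.40 to -0.87), and no separation of EA3 from EA2 (difference -0.28, 95% interval -1.05 to 0.48). This difference was lost without day 1, 2 or 3, whereas the rises themselves passed in each line without any of the days.

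Lgr6, at chr1:134983301-135105276 on the minus strand, fell in EA2 from 25.9, 17.1, 38.4 and 29.4 CPM to 1.58, 1.41, 3.16 and 1.24 CPM (log2 fold change -3.94, SE 0.31, adjusted p = 4.11e-06). In EA3 it went from 44.4, 42.9, 140.1 and 62.3 CPM to 22.4, 27.8, 53.5 and 23.4 CPM, lower on each day with overlap across days (log2 fold change -1.11, SE 0.25, adjusted p = 0.00425, and -1.73 with the day 7 libraries). In EA1 the alectinib values of 45.6, 42.9, 49.6 and 56.5 CPM lay among the DMSO values of 40.7, 45.0, 66.9 and 171 CPM (log2 fold change -0.48, 95% interval -1.01 to 0.05). Lgr6 had the smallest adjusted p of the members between lines (0.000868), and EA2 lay below EA1 by 3.45 (difference -3.45, 95% interval -4.30 to -2.61) and below EA3.

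With alectinib Lgr4 was therefore the R-spondin receptor with the highest level per length in each line, at 18.1 ± 1.40, 6.90 ± 1.06 and 9.91 ± 3.93 CPM per kilobase, while with DMSO Lgr6 stood above Lgr4 in each line, at 11.8 ± 8.94 against 2.03 ± 0.685, 4.04 ± 1.29 against 1.91 ± 0.301 and 10.6 ± 6.71 against 3.22 ± 1.03. Lgr5, a stem cell marker of the gut and a transcript that Wnt signaling raises, was not tested and reached 49 counts in the EA3 DMSO library of day 1 and 7 or fewer on the later DMSO days. Its counts with alectinib were 15, 18, 1 and 3 in EA3.

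The ligase Rnf43 rose in EA1 from 1.26, 0.111, 0.534 and 0.776 CPM to 1.93, 1.96, 0.621 and 2.51 CPM (log2 fold change 1.39, SE 0.50, adjusted p = 0.0452), a call lost without any 1 of the days (adjusted p from 0.0685 to 0.226), with the lowest value, 0.82, without day 2. In EA2 it went from 5.96 ± 1.04 to 10.4 ± 0.635 CPM without overlap and an adjusted p of 0.152. With that line fitted alone Rnf43 passed in EA2 (0.80, adjusted p = 0.0247). Znrf3, the other ligase, passed in no line, and its changes ran from -0.49 in EA1 to -0.12 in EA3. Without day 2 it passed in EA1 (-0.71, adjusted p = 0.0413).

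**Figure D5:**
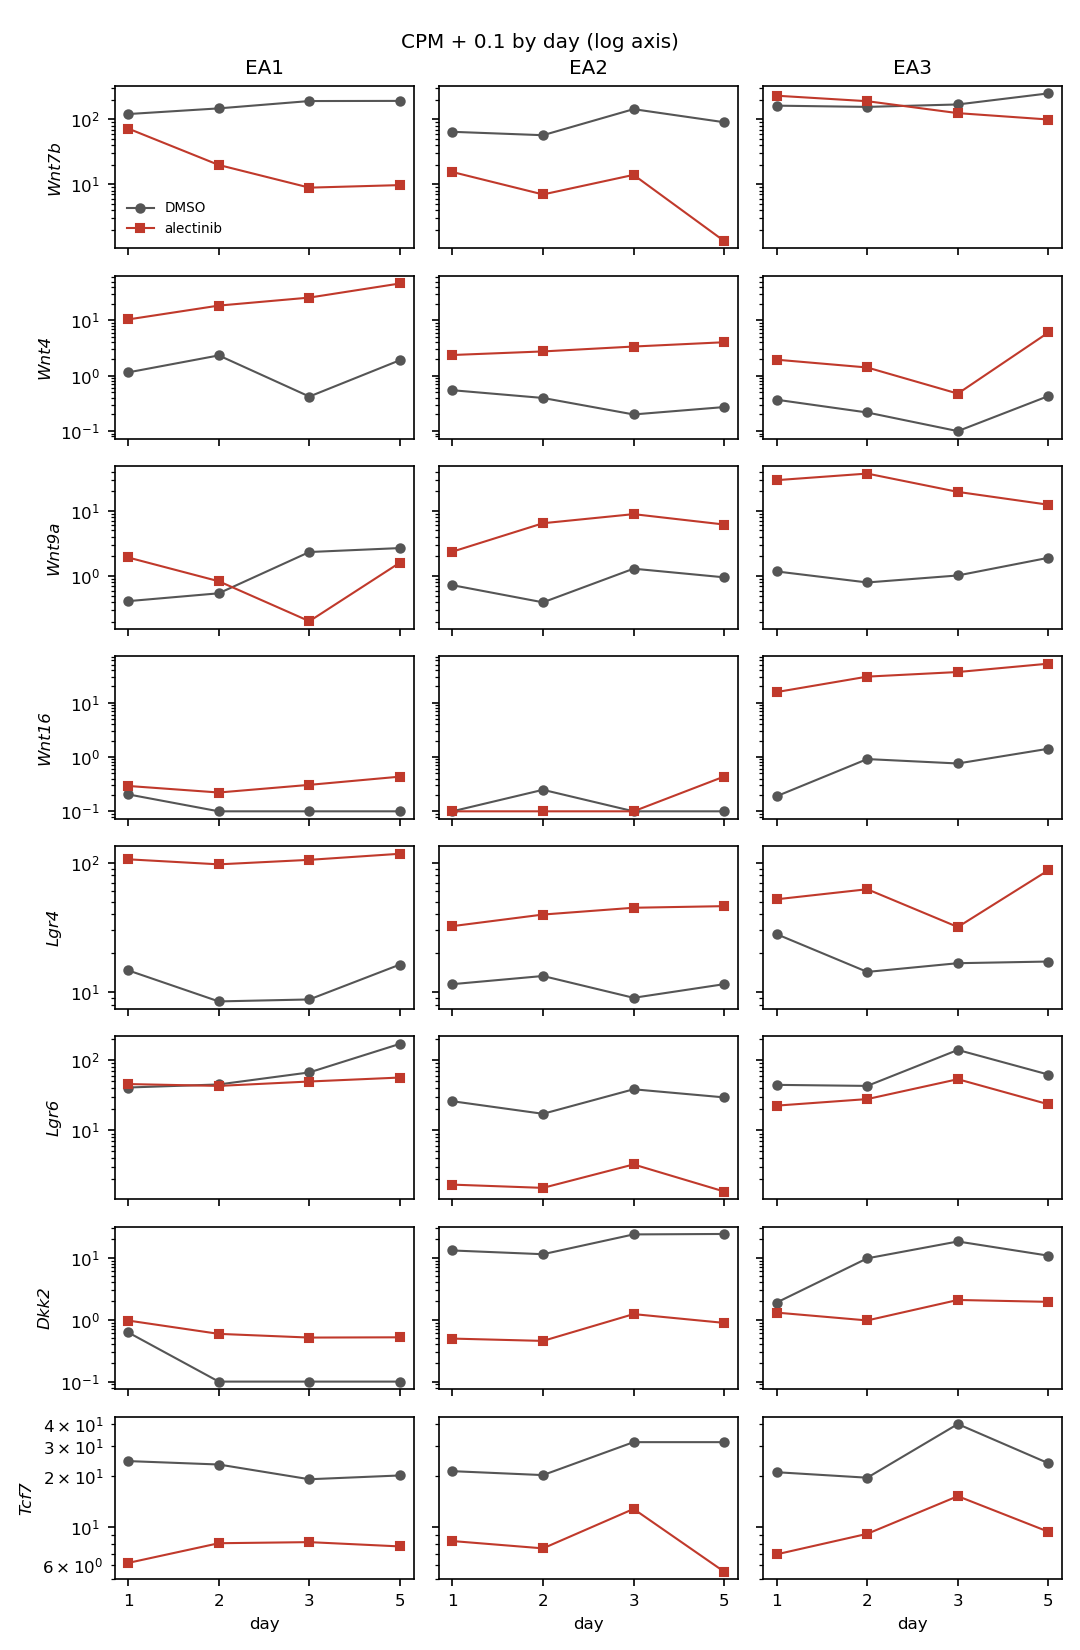
CPM plus 0.1 on a log axis against day (evenly spaced) for 8 genes (rows) in each line (columns), with DMSO as grey circles and alectinib as red squares, 1 library per point. Wnt16 separates in EA3, Wnt7b in EA1 and EA2, and Lgr4, Wnt4 and Tcf7 in all 3 lines, whereas the Lgr6 and Dkk2 panels of EA1 differ from those of EA2.

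Tcf7, which encodes TCF1, was the member that fell in all 3 lines. It lies at chr11:52252371-52283014 on the minus strand. In EA1 it went from 24.3, 23.2, 19.0 and 20.0 CPM to 6.08, 7.96, 8.08 and 7.62 CPM, in EA2 from 21.2, 20.1, 31.4 and 31.4 CPM to 8.20, 7.42, 12.7 and 5.39 CPM, and in EA3 from 20.9, 19.4, 40.1 and 23.6 CPM to 6.84, 9.05, 15.1 and 9.31 CPM. All alectinib libraries lay below all DMSO libraries of their line. Tcf7 had log2 fold changes of -1.54 (SE 0.21, adjusted p = 0.000190), -1.65 (SE 0.22, adjusted p = 0.000121) and -1.37 (SE 0.21, adjusted p = 0.000394), and the 95% intervals of the pairwise differences between lines lay within -0.76 and 0.92 (adjusted p = 0.772 for the test between lines).

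Tcf7l1 rose in EA1 from 7.22, 9.80, 4.49 and 14.2 CPM to 20.9, 25.5, 26.3 and 24.6 CPM (log2 fold change 1.55, SE 0.29, adjusted p = 0.00152) and in EA2 from 1.16, 0.743, 1.00 and 1.29 CPM to 1.98, 3.36, 4.29 and 4.61 CPM (log2 fold change 1.69, SE 0.35, adjusted p = 0.00328). Groups did not overlap in these lines. In EA3 its change of 0.73 had an adjusted p of 0.0713. It passed there with scaling by library size alone (0.84, adjusted p = 0.0387) and with the day 7 libraries (0.75, adjusted p = 0.0382). Under these settings Tcf7l1 was called higher in every line. Tcf7l2, the TCF factor best known from the intestine and the pancreas, rose from 18.6 ± 2.81 to 32.0 ± 4.49 CPM in EA2 (log2 fold change 0.79, SE 0.16, adjusted p = 0.00350) and from 29.9 ± 6.22 to 42.6 ± 2.21 CPM in EA1 (log2 fold change 0.53, SE 0.16, adjusted p = 0.0221), and its EA3 change was 0.09 (95% interval -0.26 to 0.44).

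The EA1 call of Tcf7l2 was lost without day 2, 3 or 5 (0.56, 0.34 and 0.47, adjusted p = 0.0622, 0.191 and 0.0951) and without the filter on low counts (adjusted p = 0.167). Per kilobase, Tcf7 was the highest TCF factor in each line with DMSO, and with alectinib the highest was Tcf7l1 in EA1 (6.20 ± 0.603), Tcf7l2 in EA2 (3.65 ± 0.512, against 3.22 ± 1.18 for Tcf7) and Tcf7 in EA3 (3.83 ± 1.34, against 3.41 ± 0.714 for Tcf7l2). The EA2 and EA3 orders lie within the spread between days. Lef1, not tested, was at 23 counts or fewer, with 54 counts over the EA3 DMSO libraries and 32 with alectinib, and 13 counts or fewer in each group of EA1 and EA2. Gm43352, a gene on the other strand, covers 13.7% of the Lef1 exons.

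The sequence before the start of Tcf7 and Lgr4, which moved in the same direction in all lines, and of Wnt11, the ligand that rose and held a TCF core, is given as context (RefSeq, GRCm38.p6). These genes were chosen after their values were seen. The letters searched were CTTTGA, the core that TCF and LEF factors bind, and CCGGAAG, a core of ETS factors such as Etv4, on both strands and without overlap between them, in windows of 300 bases (250 before to 50 after each start). Capitals mark a match, on either strand.
Lgr4, chr2:109917397-109917646, plus strand: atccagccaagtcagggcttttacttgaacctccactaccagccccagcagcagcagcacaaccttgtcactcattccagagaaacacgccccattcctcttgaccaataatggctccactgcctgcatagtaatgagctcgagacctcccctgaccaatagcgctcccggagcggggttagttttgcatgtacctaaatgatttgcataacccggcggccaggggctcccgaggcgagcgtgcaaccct
Tcf7, inner start, chr11:52282596-52282695, minus strand: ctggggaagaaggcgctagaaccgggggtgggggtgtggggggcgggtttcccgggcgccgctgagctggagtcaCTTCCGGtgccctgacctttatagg
Wnt11, chr7:98834862-98835111, plus strand: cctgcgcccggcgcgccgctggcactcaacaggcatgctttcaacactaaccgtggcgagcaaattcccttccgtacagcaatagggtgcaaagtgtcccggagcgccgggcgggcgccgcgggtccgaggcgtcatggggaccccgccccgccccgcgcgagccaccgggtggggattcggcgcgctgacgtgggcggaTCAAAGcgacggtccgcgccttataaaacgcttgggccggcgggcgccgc
The Tcf7 match to the ETS core begins 25 bases before the inner of its annotated starts, and the Wnt11 match to the TCF core begins 50 bases before its first start. Of the members, 35 had a promoter entry, with 44 windows in all. The TCF core was in 5 of these 44 windows (11.4%; Dkk1, Fzd1, Lef1, Wnt5b and Wnt11) and in 16.0% of 32851 windows of all genes. The ETS core was in 3 of 44 (6.82%; Fzd10, Rnf43 and Tcf7) and in 8.86% of all. A match is a description of letters and not a binding site.

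Feedback inhibitors, which Wnt signaling raises in many tissues, were scarce. Axin2 was at 0.523, 0.446, 0 and 0.129 CPM with DMSO and 0.0965, 0.122, 1.14 and 0.838 CPM with alectinib in EA1. In EA2 the values were 1.07, 0.595, 0.200 and 0.601 CPM against 1.98, 1.41, 2.82 and 3.37 CPM, and in EA3 0.0897, 0.350, 0 and 0 CPM against 0.647, 0.654, 0.282 and 1.84 CPM. EA2 groups did not overlap, and the higher value came with alectinib on all 4 days in EA2 and EA3.

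The change of Axin2 was 0.76 (adjusted p = 0.600), 1.99 (adjusted p = 0.106) and 2.65 (adjusted p = 0.0897) on the log2 scale in EA1, EA2 and EA3. With 95% intervals from 0.17 to 3.80 in EA2 and from 0.21 to 5.09 in EA3, the depth limits what can be said. In EA3 it passed in DESeq2 (adjusted p = 0.0476), without the filter on low counts (adjusted p = 0.0168), without the day blocks (adjusted p = 0.0359) and with the day 7 libraries (adjusted p = 0.0271). In EA2 it passed without the filter (adjusted p = 0.0169) and with that line fitted alone (adjusted p = 0.0439). Nkd2 passed in no line, and in EA3 its change was -1.49 (95% interval -2.79 to -0.19, adjusted p = 0.0749). Nkd1 had 2 counts in all 24 libraries.

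The alectinib effect differed between lines for 8 of 31 tested members (25.8%), namely Dkk2, Fzd1, Fzd4, Lgr4, Lgr6, Wnt5a, Wnt9a and Wnt11, while 6.84% of all tested genes did. Without 1 of the days 4 to 6 members passed, 4 without day 2 and 4 without day 3, and Dkk2, Fzd4, Lgr6 and Wnt5a were the members that passed without each of the days. EA2 had the lowest fitted effect of the lines for Dkk2, Fzd1, Fzd4, Lgr6 and Wnt5a. The other 23 members did not pass in edgeR, and of these DESeq2 called Fzd2, Fzd7 and Wnt7b.

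The slope of the effect on log2 of the day, that is the change in effect for each doubling of days, passed for 0 members in each line with edgeR. Of all tested genes 0.0210% passed in EA1, 0% in EA2 and 0.0491% in EA3. At an unadjusted p under 0.05 there were 6, 3 and 5 of 31 members, while 11.5%, 6.03% and 13.2% of all tested genes reached it. Wnt7b did so in all lines: its slopes were -1.66 (95% interval -2.35 to -0.96, adjusted p = 0.135), -1.48 (95% interval -2.23 to -0.72, adjusted p = 0.404) and -0.80 (95% interval -1.46 to -0.15, adjusted p = 0.283). DESeq2 called 1 member, Wnt7b, in EA1 and again in EA2, and 0 members in EA3.

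Of 63 other genes of the pathway, 60 were in the table and 45 were tested. In EA1 15 rose and 2 fell (19.0% and 14.6% of all tested genes did), in EA2 10 and 3 (13.0% and 11.3%), and in EA3 12 and 3 (17.5% and 15.1%). Wls, which carries Wnt proteins to the cell surface, rose in all lines, from 129 ± 26.3 to 299.8 ± 34.8 CPM in EA1, 89.0 ± 7.49 to 140.5 ± 17.9 CPM in EA2 and 99.1 ± 17.0 to 284 ± 88.7 CPM in EA3 (log2 fold changes 1.23, 0.66 and 1.49). Dvl3, a relay protein behind the receptors, rose in all lines by 0.47 to 0.62 on the log2 scale (adjusted p = 0.0446, 0.0422 and 0.0132 in EA1, EA2 and EA3). Of the receptor kinases that bind Wnt5a, Ror1 rose in EA1 and EA3, and Ror2 rose in EA1 and fell in EA2 (adjusted p = 0.0385 and 0.0371). Ror1 averaged 0.0925 CPM in EA1 with DMSO, under the floor, and 6.89 ± 7.98 CPM in EA3 with alectinib. Ryk rose by 0.63 on the log2 scale in EA2 and by 0.58 in EA3 (adjusted p = 0.00522 and 0.00746). Refits are given here for members alone. R-spondin transcripts (Rspo1 to Rspo4) were not tested, with group means of at most 0.282 CPM.

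Of 25 transcripts that beta-catenin and TCF commonly raise, of which Notum and Apcdd1 also stand among the other pathway genes, 17 were tested. In EA1 3 rose and 5 fell, in EA2 3 and 6, and in EA3 3 and 7, beside the same shares of all tested genes (19.0% and 14.6%, 13.0% and 11.3%, 17.5% and 15.1%). Ephb3, a receptor tyrosine kinase, rose in all lines (log2 fold changes 3.37, 1.66 and 1.32), and Ccnd1, Cd44 and Sox9 fell in all lines. Several of these respond to other pathways, Myc and Ccnd1 also to MAPK signaling.

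The libraries labelled EA3 day 7 lacked the ligands that marked EA3. They had 0 counts of Wnt10a and Wnt16 in both treatments, where EA3 libraries of days 1 to 5 had 13 to 200 counts of Wnt10a. Wnt7a stood at 1.64 CPM with DMSO and 0.508 CPM with alectinib, against 10.6 to 86.3 CPM in EA3 and 0.691 to 1.49 CPM in EA2 on days 1 to 5. Wnt7b went from 124 to 0.593 CPM, Lgr6 from 52.7 to 1.10 CPM, Fzd4 from 39.1 to 1.69 CPM, Wnt5a from 108 to 31.1 CPM and Dkk2 from 9.97 to 0.339 CPM, each in the direction called in EA2. Lgr6, Fzd4 and Dkk2 were called lower in EA3 as well, whereas Wnt7b was not called there and Wnt5a was called higher. With these libraries in the fit under their label, 14 members rose and 6 fell in EA3, and the alectinib effect differed between lines for 3 members, Dkk2, Fzd4 and Lgr4.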

How the data were processed

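Gene counts of 26 libraries were deposited in 1 table. Per the study's methods and the submitters' processing notes, the authors checked reads with FastQC, trimmed them with bbduk and aligned them to mm10 with STAR, whose own counter gave the raw counts per gene. The annotation release and the strand column taken are not given in the sources used here, although the library kit marks strand. All 26 sample columns were used. Of 55415 entries, 24 with a number in place of a name were left out (0.129 to 0.201% of counts), and 55314 of the 55391 symbols matched GENCODE names.

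From these counts edgeR 4.0.16 (R 4.3.3) fitted a quasi-likelihood model with TMM scaling to the 24 libraries of days 1, 2, 3 and 5, with a block for each line and day and an alectinib effect per line. Genes passed edgeR's filter on low counts by line and treatment, which left 14264. Further tests asked whether the effect differed between lines, whether it changed with log2 of the day, and whether lines differed in the 12 DMSO libraries with day as a factor. All tests were two-sided, and p-values were adjusted by Benjamini-Hochberg over all tested genes with a threshold of 0.05. The depth was 5780062 to 11732401 counts, so that 3 counts were 0.251 to 0.530 CPM. CPM were TMM-scaled, levels between genes were compared per kilobase of exon (GENCODE), and ratios of few counts have exact 95% intervals. Promoter sequences came from RefSeq (GRCm38.p6). Scripts were tested on simulated data.

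Members and lists were chosen with earlier results of these data known. Full values were given to members past the threshold, at most 12 per line by p-value, and to those that differed between lines, and levels with DMSO to the 3 highest of each role per length, with every member named at least once. Libraries of a line and day were paired by design, as the cells shared the line and the day of harvest. The residual correlation of the 12 pairs was -0.300 to 0.549, above 0.1 in 6. Alternatives were DESeq2 1.42.0, other scaling, other filters, no day block, each line alone, all 26 libraries, a log2 fold change of at least 1 and leaving out each day. One item of the lines' genotype is not reported here.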

Additional observations from a re-analysis of the deposited data

Results flagged for a closer look

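In 12 of 172 groups of 4 days, 1 day lay far from the other three by Dixon's test at its 95% critical value, and chance gives such a day in about 1 in 20 groups. On day 1 these were Dkk2 in EA1, at 0.523 CPM with DMSO and 0.868 CPM with alectinib, Fzd6 at 113 CPM in EA1 with alectinib and at 43.4 CPM in EA2 with DMSO, and Wnt10b at 106 CPM in EA2 with alectinib. On day 3 they were Fzd5 at 60.9 CPM in EA1 and Lrp5 at 166 CPM in EA2, both with alectinib. On day 5 they were Fzd8 at 18.3 CPM and Wnt10b at 33.4 CPM in EA3 with alectinib, Wnt11 at 2.71 CPM in EA1, Wnt5b at 4.73 CPM in EA2 and Wnt7b at 252 CPM in EA3, these last with DMSO.

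The alectinib effect differed between lines, by the edgeR test of the difference itself, for Lgr6 (adjusted p = 0.000868), Fzd4 (adjusted p = 0.00115), Dkk2 (adjusted p = 0.00251), Wnt5a (adjusted p = 0.00276), Lgr4 (adjusted p = 0.0254), Fzd1 (adjusted p = 0.0337), Wnt9a (adjusted p = 0.0347) and Wnt11 (adjusted p = 0.0445). Outside the libraries of the main comparison, Wnt2 had 11 counts in the library labelled EA3 alectinib day 7 and 0 in its DMSO partner.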

How the results depend on the processing

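Of the 50 calls of a member in a line, 48 remained with DESeq2, 49 with DESeq2 size factors, 48 with library size alone, 49 without the filter on low counts, 44 without the day block, 43 with each line fitted alone and 44 with all 26 libraries, and none reversed. With at least 10 counts in every library 29 of the 50 could be tested and all 29 remained, so that the counts of higher members were 5 (EA2) and 6 (EA3), 4 members differed between lines under alectinib and 12 in DMSO, with fewer genes tested. With all 26 libraries 3 differed under alectinib. DESeq2 called 1 slope on the day in EA1 and 1 in EA2, and a log2 fold change of at least 1 as well left 3 lower members in EA3. Leaving out each day in turn gave 6 to 11 higher and 1 to 4 lower in EA1, 10 to 12 and 6 in EA2, 8 to 11 and 3 to 6 in EA3, 4 to 6 that differed between lines under alectinib and 22 to 24 in DMSO, with fewer samples in each fit. Without the replicate block by day, EA1 had 8 higher and 2 lower, EA2 10 and 6, EA3 14 and 5, and 8 members differed between lines under alectinib and 21 in DMSO; the calls lost were Dkk2, Fzd4, Fzd6 and Rnf43 in EA1 and Lrp5 and Wnt10b in EA3 (adjusted p = 0.0528 to 0.112). Library size alone moved the median of all genes from 0.06 to 0.16 in EA1 and from 0.07 to 0.18 in EA3, where the share of all called genes that were higher went from 53.6% to 64.7% and members were 15 higher and 4 lower. Of uncalled values, 15 changed sign in 21 cases, with a smallest adjusted p of 0.112. The cause of these changes was not tested. Single libraries per day and counts near the floor limit Dkk2 in EA1, Wnt16 in EA1 and EA2, Rnf43 in EA1, Axin2 and the untested members.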
